A study of Homo sapiens with 4 samples.

Results

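The mitochondrial respiratory chain is built from subunits encoded in 2 genomes, and the nuclear-encoded subunits were followed here through their mRNAs in 2 cancer cell lines (MDA-MB-231, MDA-MB-435) with and without CPYPP. Genes were chosen by symbol alone, as the NDUFA, NDUFB, NDUFC, NDUFS and NDUFV families of complex I, SDHA to SDHD of complex II, the UQCR genes and CYC1 of complex III, the COX4 to COX8 families of complex IV, and the ATP5F, ATP5M and ATP5P families of complex V. This took 190 of the 61806 genes in the table. GENCODE release 29 annotates 86 of them as protein-coding, with 37 in complex I, 4 in complex II, 10 in complex III, 17 in complex IV and 18 in complex V. The other 104 are pseudogenes, 12 named for complex III, 41 for complex IV and 51 for complex V, and the symbol rule took none for complexes I and II. No pseudogene had over 33 counts in a library, 68 had 0 in each, and together they gave between 69 and 113 counts per library.

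Poly(A)-selected RNA was sequenced from 4 libraries, 1 for each condition, namely wild-type MDA-MB-231 control, MDA-MB-231 with CPYPP, MDA-MB-435 control and MDA-MB-435 with CPYPP. CPYPP, a small molecule that the study used to induce paraptosis, a vacuolating form of cell death, was given at 10 µM for 6 h by the treatment description. That description and the culture description name MDA-MB-435 for all 4 samples, so the line was taken from the label of each sample. Totals lay between 17196385 and 22663954 counts per library, and the 190 members held 0.520% and 0.464% of them in control and CPYPP MDA-MB-231 cells and 0.667% and 0.648% in control and CPYPP MDA-MB-435 cells. The labels call both lines breast cancer cells. Of the 12 marker genes read for the lines, the melanocyte gene SOX10 had 0 and 1 counts in control and CPYPP MDA-MB-231 cells against 3031 and 707 in MDA-MB-435 cells, DCT had 1 and 3 against 658 and 464, and the breast epithelial keratin KRT8 had 12813 and 9549 against 522 and 310. The pigment genes TYR, MLANA and PMEL had at most 34 counts in any library, MITF had 690 to 1585, and VIM, CD44, CAV1 and KRT18 had at least 4077 counts in every library, whereas EGFR had 12150 and 8161 counts against 70 and 33.

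Complexes I, III and IV pass electrons from NADH towards oxygen and pump protons across the inner mitochondrial membrane, complex II feeds in electrons from succinate without pumping, and complex V uses the proton gradient to make ATP. Most subunits are encoded in the nucleus and imported, whereas a small core set is encoded in mitochondrial DNA. Nuclear genes of the chain are known targets of the factors NRF1, GABP, an ETS-family factor, and YY1, and of the PGC-1 coactivators.

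The promoter letters of these factors were read first, as a feature that the symbol rule did not use. Of the 86 protein-coding members, 68 had an entry in the RefSeq promoter table, which covers 250 bases before to 50 bases after each start on GRCh38.p14. Letters of the NRF1 motif, GCGCATGCG on either strand, were present in 10 of the 68, or 14.7%, against 1.92% of all 35116 promoters in the table. ETS letters (CCGGAAG) were present in 20 members, 29.4% against 10.3%, and YY1 letters (AAGATGGCG) in 8, 11.8% against 1.75%. The antioxidant response letters TGACNNNGC were present in 14.7% of the members and 13.4% of all promoters, and CCAAT in 35.3% and 34.6%. ERR letters (TCAAGGTCA) were present in 1 member, 1.47% against 0.353%. The cyclic AMP response letters TGACGTCA were present in 5 members, 7.35% against 1.85%. TATA box letters (TATAAA) were present in 7 members, 10.3% against 11.5%. Both strands were searched for each motif, and matches of different motifs could overlap. Members had 1 entry per gene, while the background was every entry of the promoter table, not limited to protein-coding or expressed genes. NRF1 letters were found in 4 of 31 complex I promoters, 1 of 3 for complex II, 0 of 7 for complex III, 1 of 14 for complex IV and 4 of 13 for complex V. These are matches of letters and were not read as binding. Stretches with the NRF1 letters are printed for 6 genes of complexes I, II and V, with the motif in capitals, because the same letters lie in promoter entries of genes that took different values after CPYPP.
ATP5F1C: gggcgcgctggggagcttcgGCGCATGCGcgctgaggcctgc
ATP5ME: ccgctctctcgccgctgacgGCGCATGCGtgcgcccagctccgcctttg
ATP5PF: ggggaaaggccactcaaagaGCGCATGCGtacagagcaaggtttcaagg
NDUFS6: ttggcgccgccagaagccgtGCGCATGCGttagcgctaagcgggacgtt
NDUFS7: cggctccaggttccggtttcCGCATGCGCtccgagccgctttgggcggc
SDHD: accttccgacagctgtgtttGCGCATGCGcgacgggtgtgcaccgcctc

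All stretches lie upstream of the start in the RefSeq promoter table and are written 5′ to 3′ on the gene's own strand, and the NDUFS7 stretch carries the letters on the other strand. By the gene positions of the deposited table, the stretches of NDUFS7 and ATP5PF lie inside the gene's span. They lie at chr10:7788135-7788176 (plus strand, ATP5F1C), chr4:674326-674374 (minus, ATP5ME), chr21:25735146-25735194 (minus, ATP5PF), chr5:1801341-1801389 (plus, NDUFS6), chr19:1383813-1383861 (plus, NDUFS7) and chr11:112086743-112086791 (plus, SDHD). After CPYPP the log2 fold change of ATP5ME was -0.44 in MDA-MB-231 against 0.22 in MDA-MB-435, that of NDUFS7 was -0.04 and -0.20, that of SDHD was -0.05 and 0.14, and that of ATP5F1C was -0.07 and 0.08.

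Levels in the control libraries were compared first. Here a level is given as FPKM, the count divided by the exon length in the deposited table and by the TMM-scaled size of the library. That exon length can be far above the length of a transcript. It was 16591 bases for NDUFB9, whose median protein-coding transcript has 750, but 548 for NDUFS5 against 546. Rankings between genes and sums over a complex therefore depend on it, while the ratio of a gene between libraries does not. Where 2 values of a gene stand without the names of the lines, that of MDA-MB-231 comes first. In MDA-MB-231 control cells the summed FPKM of the protein-coding members was 679 for complex I, 107 for complex II, 264 for complex III, 448 for complex IV and 678 for complex V. The same sums in MDA-MB-435 control cells were 778, 117, 387, 634 and 721. MDA-MB-435 thus carried 1.47 times the MDA-MB-231 level for complex III and 1.41 times for complex IV, but 1.14, 1.09 and 1.06 times for complexes I, II and V.

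ATP5F1B, the catalytic beta subunit of ATP synthase, was the highest member, at 236 FPKM in MDA-MB-231 control and 275 FPKM in MDA-MB-435 control cells. COX8A, a small subunit of cytochrome c oxidase, had 126 and 206 FPKM, and NDUFS5, an accessory subunit of complex I, had 133 and 121 FPKM. UQCRH, the hinge subunit of complex III, had 59.6 and 107 FPKM. SDHD, a membrane anchor of complex II, was the highest of its complex at 40.9 and 44.3 FPKM, and SDHA, the flavoprotein that oxidizes succinate, the lowest at 7.46 and 5.98 FPKM. NDUFA7 had the lowest value of complex I, at 1.18 and 1.13 FPKM from 37 and 38 counts. Another protein-coding gene, with 0 to 4 counts per library, overlaps it by 12608 bases on the same strand. How reads shared by overlapping genes were counted is not given in the sources used here, so the level of NDUFA7 may be understated.

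**Figure D1:**
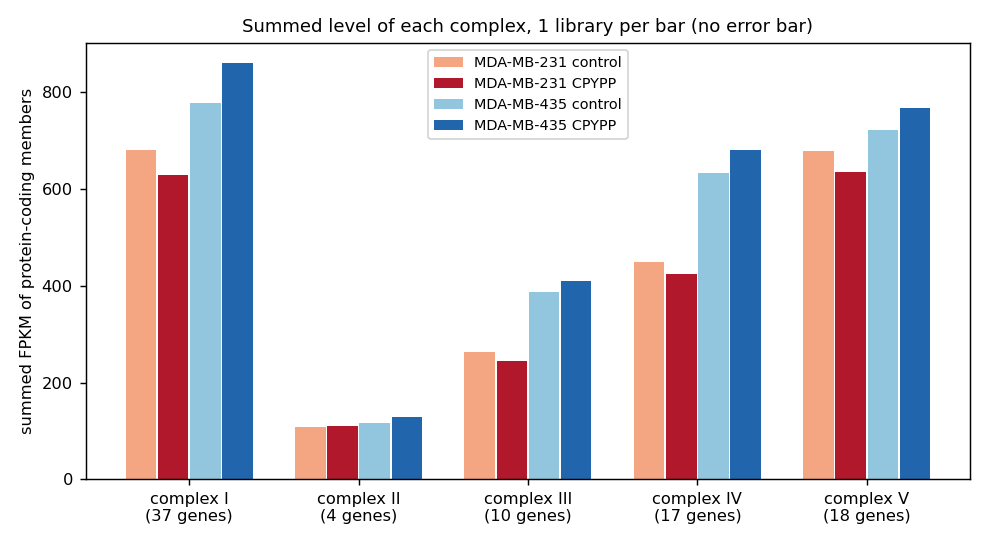
Summed FPKM of the protein-coding members of each complex in the 4 libraries. Each bar is 1 library, so there is no error bar. In every complex the 2 MDA-MB-435 libraries stand above the 2 MDA-MB-231 libraries, and the ratio between the controls is largest for complexes III and IV.

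Tissue-specific isoforms were nearly silent. COX4I2 and COX6A2 had 0 counts in each of the 4 libraries, which allows up to 3 counts per library. ATP5MGL of complex V also had 0 counts in each. However, CYB5R3, with 1402 to 5188 counts per library, overlaps it by 799 bases on the same strand. How reads shared by overlapping genes were counted is not given in the sources used here, so that 0 does not bound the level of ATP5MGL. COX6B2 had 4 and 6 counts in control and CPYPP MDA-MB-231 cells, COX7A1 had 6 and 3, COX7B2 had 7 and 3, and COX8C had 1 and 0, and all of these had 0 counts in both MDA-MB-435 libraries. Their widely expressed counterparts were abundant, as COX4I1 had 25.2 and 32.6 FPKM in the 2 controls, COX6A1 had 63.3 and 65.2, COX7A2 had 34.6 and 69.0 and COX7B had 12.8 and 22.8. The retrocopy UQCRHL, whose sequence is close to that of UQCRH, had 72 and 141 counts against 1804 and 3478. How the counting treated reads shared between such copies is not given in the sources used here. These low isoforms and ATP5MGL are why 79 of the 86 protein-coding members, with at least 10 counts in 1 of the 2 libraries compared, entered each test.

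Single members were compared between the controls by an exact binomial test of the reads. Of all 18269 genes tested, 22.0% were over 2-fold higher and 20.7% over 2-fold lower in MDA-MB-435. That background includes noncoding genes and genes with few counts. The share among protein-coding genes with higher counts was not computed, so the member counts were not read as few or many. Among the protein-coding members 7 of 79 were higher and 1 was lower, and 1 pseudogene was also higher. The median log2 difference was 0.21 over the 79 members and 0.01 over all genes tested. With 1 control per line, these values compare 2 libraries and have no replicate check.

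NDUFB9, an accessory subunit of complex I, stood farthest apart, with 442 counts in MDA-MB-231 control and 5153 in MDA-MB-435 control cells, a 10.9-fold difference (95% counting interval, 9.87 to 12.0). The CPYPP libraries showed the same gap, with 393 and 5051 counts. NDUFB9 overlaps TATDN1 by 358 bases and MTSS1 by 29865 bases, both on the other strand, and these had 298 and 932 counts and 41 and 81 counts in the 2 controls. COX5B, a subunit of cytochrome c oxidase, was 3.20-fold higher in MDA-MB-435 (2.92 to 3.51), NDUFC1 3.05-fold (2.64 to 3.54), NDUFB7 3.0-fold (2.64 to 3.42) and ATP5F1D, the delta subunit of the ATP synthase stalk, 2.98-fold (2.67 to 3.34). NDUFS7, which holds an iron-sulphur cluster of complex I, and ATP5PF, a stator subunit, were both 2.08-fold higher. The lower member was NDUFA12, an accessory subunit of complex I, with 1531 counts in MDA-MB-231 control and 679 in MDA-MB-435 control cells, a ratio of 0.414 (0.377 to 0.453). By span, 52 of the 86 protein-coding members overlap another gene, 35 of them on the other strand. An overlapping gene with at least 10 counts was found for 33 members, and with at least 100 counts for 19. The share among all genes was not computed, so these counts were not read as a trait of the family. Whether the counting used strand is not given in the sources used here.

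**Figure D2:**
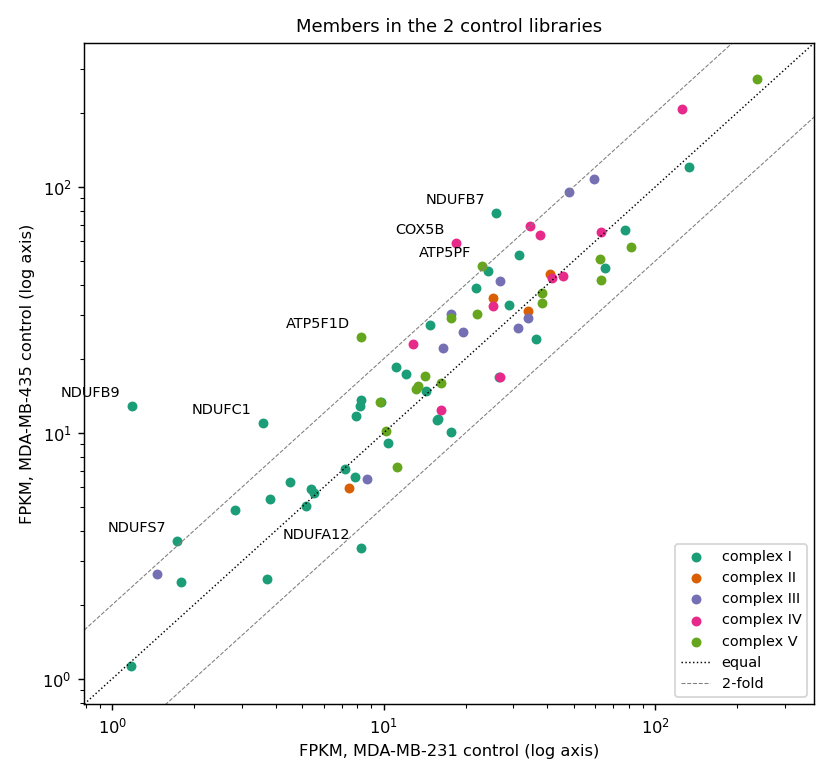
FPKM of each tested protein-coding member in the MDA-MB-231 control library (x axis) and the MDA-MB-435 control library (y axis), both on log axes. Dashed lines mark 2-fold, and the 8 labelled genes, among them NDUFB9 at 1.18 and 12.8 FPKM, lie outside them.

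After CPYPP the respiratory chain mRNAs stayed close to their control levels, and no protein-coding member passed 2-fold in either line. Within each line the CPYPP library was compared with the control library by the same read test, with a call at an adjusted p below 0.05 and over 2-fold. In MDA-MB-231 cells 0 of 84 members tested were higher and 0 lower, against 3.89% higher and 2.87% lower among all 16441 genes tested. In MDA-MB-435 cells 0 of 82 were higher and 1 was lower, against 3.03% and 6.37% of 16527 genes. The lower member was the processed pseudogene COX5BP6, which went from 12 counts to 1 (counting interval of the ratio, 0.00251 to 0.726). All 79 protein-coding members lay between -0.51 and 0.42 on the log2 scale. Calls over 2-fold were also few among protein-coding genes with a mean of at least 100 counts. In MDA-MB-231, 166 of 10442 such genes were higher and 113 lower, and in MDA-MB-435, 236 of 10295 were higher and 197 lower. The 0 calls among the 79 members were near these shares. In the same libraries the heat shock gene HSPA1A had 522 and 16564 counts in control and CPYPP MDA-MB-231 cells against 593 and 50494 in MDA-MB-435, and the haem oxygenase gene HMOX1 had 158 and 16468 against 443 and 47504.

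The members' medians nevertheless lay on opposite sides of 0 in the 2 lines. In 54 of 79 protein-coding members the value was below 0 in MDA-MB-231 while it was above 0 in MDA-MB-435, and in 0 members the reverse. The median log2 fold change of the 79 protein-coding members was -0.12 in MDA-MB-231, with 67 of 79 below 0, and 0.13 in MDA-MB-435, with 66 of 79 above 0. The median over all genes tested was -0.01 in MDA-MB-231 against -0.02 in MDA-MB-435. Among protein-coding genes with a mean of at least 100 counts, which are closer to the members in depth, the medians were 0.00 and 0.06, and 49.9% and 43.3% of these genes were below 0. With total counts in place of TMM, the MDA-MB-435 median over members became -0.02 while that over all genes fell to -0.16, so the sign of the MDA-MB-435 median depended on the scaling. Relative to the median of all tested genes, the members were at -0.11 in MDA-MB-231 against 0.14 in MDA-MB-435, and these values cannot change with the scaling, which shifts every gene of a library alike.

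By adjusted p alone, without a fold limit, 29 protein-coding members were lower and 4 higher after CPYPP in MDA-MB-231, against 20.5% lower and 23.6% higher among all genes tested. In MDA-MB-435 cells 37 were higher and 2 lower, and 1 further lower member was the pseudogene COX5BP6, against 27.3% higher and 22.9% lower among all genes. Among protein-coding genes with a mean of at least 100 counts, 2727 of 10442 (26.1%) were lower and 3159 higher in MDA-MB-231. For MDA-MB-435, 2472 of 10295 such genes (24.0%) were lower and 3993 higher. In MDA-MB-435 the balance of the member calls turned with the scaling: counting pseudogenes too, 8 members were higher and 20 lower with total counts, 11 and 16 with the upper quartile, and 17 and 13 with TMM over all 4 libraries, while DESeq2 size factors gave 40 and 3. SDHA, SDHB, SDHD, COX4I1 and ATP5F1B, which are higher in MDA-MB-435 below, had values under 0 there with total counts. In MDA-MB-231 the lower calls outnumbered the higher ones under each of these scalings. These calls measure counting error between 2 libraries and not the spread between cultures. Under a biological coefficient of variation set to 0.2, none was left in either line.

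**Figure D3:**
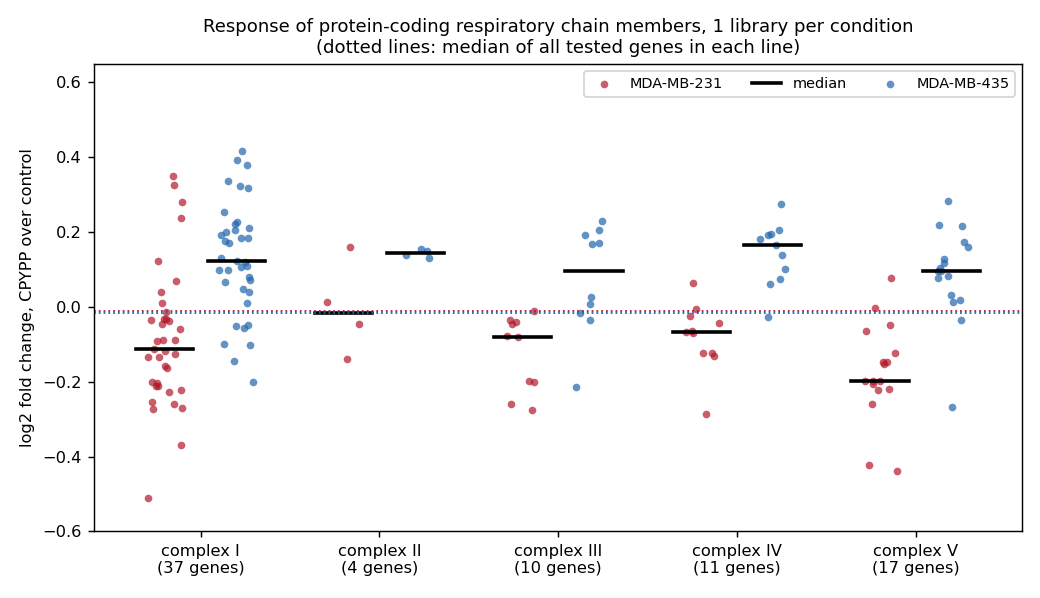
Log2 fold change after CPYPP (y axis) of each tested protein-coding member, grouped by complex and coloured by line, with black bars at the medians. The bars of MDA-MB-231 lie at or below the dotted all-gene medians, between -0.20 and -0.02, and those of MDA-MB-435 lie above them, between 0.10 and 0.17, with TMM over the 2 libraries compared; with total counts they lay under 0 except for complex IV.

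Complex I oxidizes NADH, and its 37 members spanned -0.51 to 0.35 in MDA-MB-231, with a median of -0.11, and -0.20 to 0.42 in MDA-MB-435, with a median of 0.12. By adjusted p alone, 10 were lower (27.0%, against 20.5% of all genes) and 3 higher (8.11% against 23.6%) in MDA-MB-231. In the MDA-MB-435 libraries 15 were higher (40.5% against 27.3%) and 0 lower (against 22.9%), but with total counts the median of complex I there was -0.03. Among protein-coding genes with a mean of at least 100 counts, 26.1% were lower in MDA-MB-231 and 3993 of 10295 were higher in MDA-MB-435. The complex I shares in these 2 directions lay near those. These shares and those of all genes are the background of the other complexes. NDUFC2, an accessory subunit of the membrane arm (chr11:78068297-78079862 in the deposited table, overlapping GENCODE release 29 on GRCh38), had 17.6 and 22.4 FPKM in control and CPYPP MDA-MB-231 cells and 10.1 and 13.5 FPKM in MDA-MB-435 cells. It was thus higher after CPYPP in both lines, 1.27-fold (1.16 to 1.4) and 1.34-fold (1.19 to 1.5). NDUFB9 was 1.21-fold (1.06 to 1.39) and 1.26-fold (1.22 to 1.31) higher, and NDUFA10, another accessory subunit, 1.18-fold and 1.15-fold higher. At the other end was NDUFV3, a small subunit of the NADH-oxidizing module, with 5.52 and 3.88 FPKM in MDA-MB-231, a ratio of 0.702 (0.622 to 0.792), and 5.70 and 5.16 FPKM in MDA-MB-435, a ratio of 0.905 (0.815 to 1.00).

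NDUFS1, the largest subunit of the complex, had 12.1 and 12.0 FPKM in MDA-MB-231 against 17.3 and 16.7 FPKM in MDA-MB-435. NDUFV1, which binds the flavin, was lower in MDA-MB-231 at 0.855-fold (0.791 to 0.924) and had a ratio of 0.965 (0.916 to 1.02) in MDA-MB-435. NDUFS8, which holds iron-sulphur clusters, had ratios of 0.940 (0.843 to 1.05) and 0.933 (0.856 to 1.02). NDUFV2 had ratios of 0.959 (0.827 to 1.11) and 1.05 (0.916 to 1.21), and NDUFS7 of 0.974 (0.811 to 1.17) and 0.871 (0.770 to 0.984). NDUFS3, a core subunit of the peripheral arm, was the one of these 6 that was higher in MDA-MB-435 by adjusted p alone, with 9.73 and 8.04 FPKM in MDA-MB-231 against 13.3 and 15 FPKM in MDA-MB-435.

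Over the 79 members the log2 fold change in MDA-MB-231 had a Pearson r of -0.08 with transcript GC content and a Spearman rho of -0.07, while in MDA-MB-435 r was -0.36 and rho -0.20. Over protein-coding genes r was -0.10 and rho -0.14 in MDA-MB-231 (12881 genes), while in MDA-MB-435 r was -0.20 and rho -0.28 (12448 genes). These correlations are across genes, which share the libraries and are not replicates, and the part of GC content in the values of single members was not tested.

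Complex II, which is also an enzyme of the citric acid cycle, had a median of -0.02 over 4 members in MDA-MB-231 against a median of 0.14 in MDA-MB-435, where all 4 were higher by adjusted p alone. SDHC, a membrane anchor that helps to bind haem, was higher in both lines, 1.12-fold (1.03 to 1.21) and 1.11-fold (1.03 to 1.20). SDHA was lower in MDA-MB-231 at 0.908-fold (0.836 to 0.985) and higher in MDA-MB-435 at 1.11-fold (1.02 to 1.20). SDHB, the iron-sulphur subunit, had 25.2 and 25.4 FPKM in MDA-MB-231 against 35.4 and 38.8 FPKM in MDA-MB-435.

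Complex III passes electrons from ubiquinol to cytochrome c. All 10 of its members were below 0 in MDA-MB-231, with a median of -0.08 and 3 of them lower by adjusted p alone, and 7 were above 0 in MDA-MB-435, with a median of 0.10, 4 higher and 1 lower by adjusted p alone. CYC1, the cytochrome c1 haem subunit, fell from 48.0 to 39.6 FPKM in MDA-MB-231, a ratio of 0.825 (0.770 to 0.885), and had 95.2 and 93.0 FPKM in MDA-MB-435. UQCRC1, a core subunit facing the matrix, had 26.8 and 26.6 FPKM and 41.3 and 40.8 FPKM, and its partner UQCRC2 had 17.7 and 17.3 FPKM and 30.4 and 35.1 FPKM. UQCRFS1, the Rieske iron-sulphur protein, had 31.3 and 29.5 FPKM and 26.5 and 26.7 FPKM. UQCR10 was the lower member in MDA-MB-435, at 0.862-fold (0.764 to 0.972).

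Complex IV reduces oxygen, and 10 of its 11 tested members were below 0 in MDA-MB-231 (median -0.07, 2 lower by adjusted p alone) and 10 of 11 above 0 in MDA-MB-435 (median 0.17, 7 higher by adjusted p alone). COX5A, a subunit that faces the matrix, had 37.4 and 30.7 FPKM in MDA-MB-231, a ratio of 0.819 (0.744 to 0.902), and 63.8 and 67.2 FPKM in MDA-MB-435. COX4I1, which takes part in the control of the enzyme by ATP, had 25.2 and 23.1 FPKM and 32.6 and 35.9 FPKM. COX7C was the highest of the complex in MDA-MB-435 by fold change, at 1.21-fold (1.14 to 1.29), and was 0.955-fold (0.891 to 1.02) in MDA-MB-231. NDUFA4, now counted with complex IV although its name puts it in complex I, was 1.01-fold in MDA-MB-231 against 1.25-fold in MDA-MB-435.

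Complex V had the lowest median in MDA-MB-231, -0.20 over 17 members, with 16 below 0 and 13 lower by adjusted p alone. In MDA-MB-435 its median was 0.10, with 15 of 17 above 0, 7 higher and 1 lower by adjusted p alone. ATP5F1A, the alpha subunit of the catalytic head, had 38.4 and 32.9 FPKM in MDA-MB-231, a ratio of 0.857 (0.830 to 0.886), and 36.9 and 37.8 FPKM in MDA-MB-435. The beta subunit ATP5F1B was at 0.997-fold (0.970 to 1.03) in MDA-MB-231 against 1.07-fold (1.04 to 1.09) in MDA-MB-435. The gamma subunit ATP5F1C was 0.956-fold and 1.05-fold. ATP5F1D (chr19:1241746-1244825) was lower in both lines, with 8.21 and 6.13 FPKM in MDA-MB-231, 0.746-fold (0.632 to 0.879), and 24.5 and 20.3 FPKM in MDA-MB-435, 0.831-fold (0.761 to 0.906). The 3 genes for the same mature proton-carrying c subunit, ATP5MC1, ATP5MC2 and ATP5MC3, were 0.871-fold, 0.866-fold and 0.904-fold in MDA-MB-231 and 1.09-fold, 0.976-fold and 1.01-fold in MDA-MB-435.

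The lines were then set beside each other. The log2 fold change in MDA-MB-435 minus that in MDA-MB-231 had a median of 0.24 over the 79 members, 0.03 over all genes tested in both lines and 0.06 over protein-coding genes with a mean of at least 100 counts. Its 95% counting interval lay above 0 for 50 members (63.3%) and below 0 for 0, against 25.1% above and 17.8% below among the 14262 genes tested in both lines. Among protein-coding genes with a mean of at least 100 counts, 32.2% lay above and 18.2% below. With total counts 36 members lay above and 2 below, against 18.3% and 23.9% of all genes, and under the other scalings 39 to 50 lay above and 0 to 2 below. Calls by adjusted p alone went down in MDA-MB-231 and up in MDA-MB-435 for 11 of the 79 members, against 2.96% of all genes and 4.03% of those protein-coding genes, and the reverse for 0 members, against 1.75% and 2.05%. The 11 became 1 to 9 under the other scalings. By complex the median difference was 0.26, 0.15, 0.24, 0.23 and 0.22 for complexes I to V. ATP5ME, a small subunit of the membrane part of ATP synthase, had the largest difference at 0.66 (0.30 to 1.02), with 281 and 152 counts in MDA-MB-231 against 348 and 314 in MDA-MB-435. NDUFB2 followed at 0.58 (0.32 to 0.84) and NDUFA6 at 0.53 (0.33 to 0.72). Among members with at least 100 counts in every library, the most negative differences were -0.17 for UQCR10, -0.16 for NDUFS7 and -0.04 for NDUFS1, and their intervals included 0. With 1 library per condition, a difference between lines and a difference between cultures cannot be told apart.

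**Figure D4:**
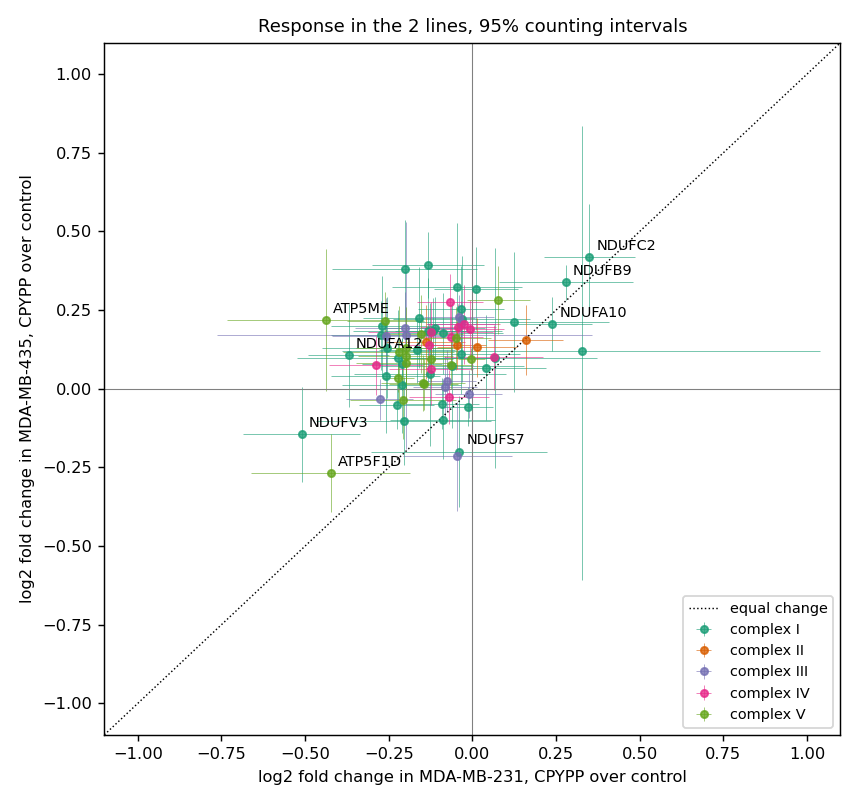
Log2 fold change after CPYPP in MDA-MB-231 (x axis) and MDA-MB-435 (y axis) for the 79 tested protein-coding members, coloured by complex, with 95% counting intervals. With TMM over the 2 libraries compared, the upper left part holds 54 points, 12 lie at upper right and 13 at lower left, and NDUFC2, NDUFB9 and NDUFA10 are among those at upper right and NDUFV3 and ATP5F1D among those at lower left.

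Levels summed over members were compared next. The summed FPKM of all protein-coding members went from 2177 to 2043 in MDA-MB-231, a ratio of 0.938, while MDA-MB-435 went from 2636 to 2846, a ratio of 1.08. In MDA-MB-231 the ratios were 0.926, 1.02, 0.927, 0.946 and 0.937 for complexes I to V, and in MDA-MB-435 they were 1.1, 1.1, 1.06, 1.07 and 1.06. In MDA-MB-435 the ratios depended on the scaling, and with total counts they lay between 0.956 and 0.996 for the 5 complexes.

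A change common to both lines was tested with edgeR's quasi-likelihood test on all 4 libraries, blocked by cell line. Of 82 members tested, 0 were higher and 0 lower at an adjusted p below 0.05, against 4.39% higher and 2.85% lower among 16801 genes. At an unadjusted p below 0.05 there were 4, and the smallest adjusted p was 0.152. They were ATP5F1D, at a log2 change of -0.38 ± 0.14 (SE), NDUFV3 at -0.37 ± 0.15, NDUFC2 at 0.34 ± 0.14 and NDUFB9 at 0.27 ± 0.11. DESeq2's Wald test called 2 members, NDUFB9 and NDUFC2, both higher. The fit has 1 residual degree of freedom, and its spread is the disagreement between the lines. In simulated counts with the same change in both lines it recovered 62 of 85 genes changed by 1 on the log2 scale and 105 of 106 changed by 2. Smaller nonzero changes were not simulated, so recovery of changes of the members' size was not tested.

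The partner subunits encoded in mitochondrial DNA had lower values after CPYPP than the nuclear ones in both lines, by median. All 13 were lower after CPYPP in MDA-MB-231 against 12 of 13 in MDA-MB-435 by adjusted p alone, with a median log2 fold change of -0.49 in each line. Among all genes tested, 20.5% and 22.9% were lower. Each of the 13 had at least 3003 counts in every library, a depth at which the read test calls small changes. Their summed FPKM had a ratio of 0.680 in MDA-MB-231 against 0.720 in MDA-MB-435. In the common test 10 of the 13 were lower, against 2.85% of all genes. MT-CO1, the catalytic subunit of complex IV, had 247917 and 134533 counts in MDA-MB-231 against 232442 and 128361 in MDA-MB-435. MT-ND2 of complex I had ratios of 0.575 and 0.521, and MT-ATP6 of complex V 0.632 and 0.672. Poly(A) selection was used, and its part in the level of mitochondrial transcripts was not tested.

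Assembly factors, which build the complexes without staying in them, had medians of -0.06 in MDA-MB-231 against -0.04 in MDA-MB-435 over 54 genes. By adjusted p alone MDA-MB-231 had 5 higher (9.26%, against 23.6% of all genes) and 11 lower (20.4% against 20.5%). MDA-MB-435 had 11 higher (20.4% against 27.3%) and 10 lower (18.5% against 22.9%), so none of these shares exceeded that of all genes. COX19, a factor linked to copper delivery to complex IV, passed 2-fold in MDA-MB-435, with 374 and 526 counts in MDA-MB-231 against 265 and 590 in MDA-MB-435, a common log2 change of 1.18 ± 0.18 (SE, edgeR adjusted p = 0.00344). COA7 was also higher and COX18, which inserts a complex IV subunit into the membrane, lower in the common test. PET117, another complex IV factor, passed 2-fold in MDA-MB-231, from 85 to 28 counts, a ratio of 0.450 (0.282 to 0.696).

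Of 14 regulators of mitochondrial biogenesis tested, 6 were higher (42.9%, against 23.6% of all genes) and 3 lower (21.4% against 20.5%) by adjusted p alone in MDA-MB-231. MDA-MB-435 had 9 higher (64.3% against 27.3%) and 4 lower (28.6% against 22.9%). GABPB1, the beta subunit of GABP, had 936 and 1015 counts in MDA-MB-231 against 730 and 1295 in MDA-MB-435, ratios of 1.48 (1.35 to 1.62) and 2.29 (2.09 to 2.51), and was higher in the common test (log2 change 0.84 ± 0.16 SE). Its partner GABPA, which overlaps ATP5PF by 1104 bases on the other strand, was 1.21-fold and 1.46-fold. NRF1 was 1.20-fold and 1.27-fold, and TFAM, which packages and transcribes mitochondrial DNA, 1.16-fold and 1.22-fold. The PGC-1 coactivators went both ways. PPARGC1A had 29 and 11 counts in MDA-MB-231, a ratio of 0.518 (0.233 to 1.07) that was not called, and 129 and 59 in MDA-MB-435, where it was lower at 0.590-fold (0.426 to 0.809). PPARGC1B had ratios of 0.800 (0.605 to 1.05), not called, and 0.631 (0.542 to 0.734), called lower. PPRC1, the third member of that family, had 1.08 (1.01 to 1.15), not called, and 1.31 (1.23 to 1.39), called higher. Their partner, the nuclear receptor ESRRA, was lower in both lines by adjusted p alone, at 0.837-fold (0.743 to 0.942) and 0.876-fold (0.820 to 0.937). POLRMT, the mitochondrial RNA polymerase, was lower in the common test, with ratios of 0.747 (0.639 to 0.873) and 0.625 (0.568 to 0.688). Among 14 subunits and partners of the chain outside the symbol rule, cytochrome c (CYCS) had ratios of 0.931 and 1.24. None of the 14 was called in the common test, with 3 at an unadjusted p below 0.05.

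**Figure D5:**
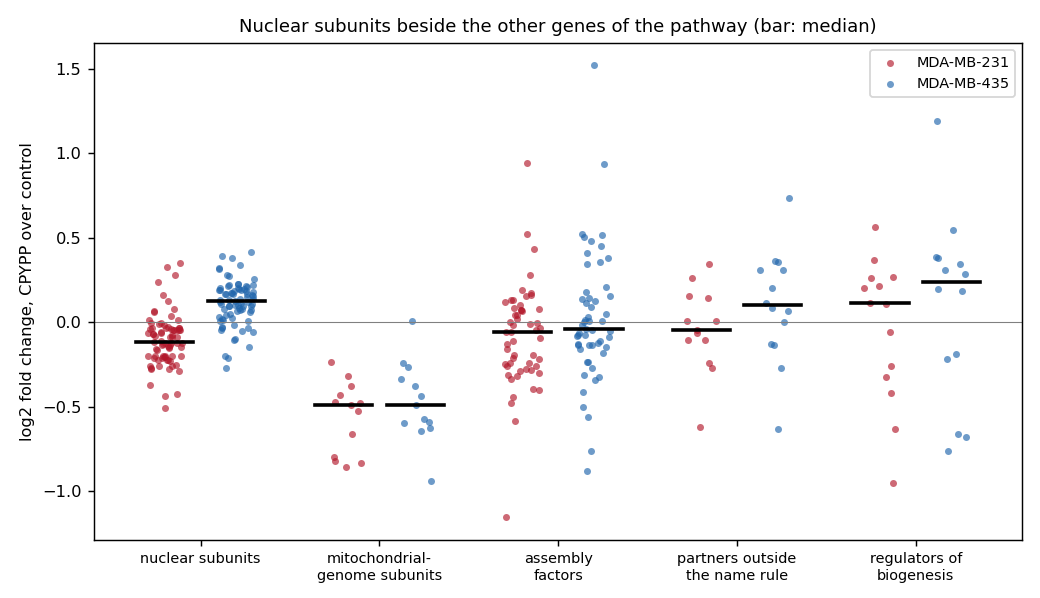
Log2 fold change after CPYPP (y axis) of the nuclear subunits beside mitochondrial-genome subunits, assembly factors, partners outside the symbol rule and regulators, in both lines, with black bars at the medians. The nuclear subunits lie between -0.51 and 0.42, and the mitochondrial-genome subunits have medians of -0.49 in each line.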

How the data were processed

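Counts are whole reads per gene that the authors deposited without normalization, together with gene positions and exon lengths, and no column of another sample was used. The submitters' processing notes name cutadapt 1.9.1, HISAT2 2.2.1, HTSeq 0.6.1, DESeq2 and GRCh37.p13, while the table's positions overlap GENCODE release 29 on GRCh38 for 58196 of the 58254 genes it shares and for all 190 members. The strand setting is not given in the sources used here. Members and gene lists were chosen with earlier results of these data known.

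Within a line, and between the controls, counts were scaled by TMM over the 2 libraries compared (factors from 0.962 to 1.07), genes with at least 10 counts in 1 of them were kept, counts under 3 were set to 3, and reads were compared by an exact two-sided binomial test with Benjamini-Hochberg adjustment and 95% Clopper-Pearson intervals. These intervals cover counting error only, and they narrow as the counts rise. The common effect used edgeR 4.0.16 (glmQLFit, glmQLFTest, filterByExpr, TMM over the 4 libraries) in R 4.3.3, with DESeq2 1.42.0 as an alternative. The rest was computed in Python 3.11.15 with scipy 1.17.1, pandas 2.3.3 and numpy 2.4.6, and drawn with matplotlib 3.10.9. Both tests were run on simulated counts with known changes. The within-line counts were drawn with counting error alone, and the intervals covered the true value for 95.8% and 95.7% of unchanged genes. That setting is the one the intervals assume, so this coverage says nothing about the spread between cultures.

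Genes were named by rule: core subunits, isoform pairs, the 2 highest and 2 lowest common changes of each complex, members over 2-fold, the highest and lowest levels, the 3 largest differences between lines each way, and listed pathway genes over 2-fold. A grouped result for core subunits is not reported here. The other genes named, among them PPARGC1A, PPRC1, ESRRA, PPARGC1B, NDUFA10, NDUFA12, NDUFB9's neighbours, NDUFC1, NDUFS6, ATP5PF and POLRMT, were chosen after their values were seen. Alternatives covered scaling, filters on low counts, an assumed biological coefficient of variation, the fold limit, protein-coding rows alone, the block and TPM.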

Additional observations from a re-analysis of the deposited data

Results flagged for a closer look

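In 11 members the CPYPP library was lower than control in MDA-MB-231 and higher in MDA-MB-435, each by adjusted p on the reads alone, and none had the opposite pair of directions, against 2.96% and 1.75% of the 14262 genes tested in both lines. With 1 library per condition the difference between the lines was not tested. On the log2 scale, MDA-MB-435 minus MDA-MB-231, it was 0.475 for ATP5F1E, 0.470 for NDUFS4, 0.444 for NDUFS3, 0.425 for UQCRQ, 0.394 for UQCR11, 0.326 for ATP5MK, 0.302 for ATP5PF, 0.288 for SDHA, 0.286 for NDUFA5, 0.269 for COX4I1 and 0.219 for ATP5PB. They come from all 5 complexes. How many members met this description depended on the scaling: 9 with DESeq2 size factors, 3 with total counts (COX7C, NDUFA6 and NDUFB2), 2 with the upper quartile (ATP5F1E and COX7C) and 1 with TMM over all 4 libraries (ATP5F1E).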

How the results depend on the processing

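With 1 library per condition, no replicate could be left out, and counting error at these depths covers reads and not cultures. The labels give 1 replicate per group, and the common test pairs control with CPYPP by cell line alone. Across the alternatives for the values a comparison rests on, 188 kept their direction and stayed close to the main value, 45 moved and 15 reversed. A scaling shifts every gene of a library alike, so the members' medians relative to all genes cannot change with it. With total counts the median of all genes fell to -0.08 in MDA-MB-231 while MDA-MB-435 had -0.16, and with the upper quartile to -0.06 and -0.13. Leaving out COX5BP6 by construction ends its call. The cause of the other changes was not tested.

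Calls by adjusted p alone in MDA-MB-231 became 2 higher and 44 lower with total counts, 2 higher with the upper quartile, and 0 higher and 0 lower under a biological coefficient of variation set to 0.2. In MDA-MB-435 they became 8 higher and 20 lower with total counts, 11 and 16 with the upper quartile, 17 and 13 with TMM over all 4 libraries (an alternative chosen after seeing the data), 6 lower with protein-coding rows alone, and 0 and 0 with the assumed coefficient of 0.2. The call of COX5BP6 over 2-fold became 0 with at least 10 counts in both libraries, with protein-coding rows alone and with the coefficient of 0.2. With DESeq2's Wald test 2 members were called as higher in both lines.

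With total counts the MDA-MB-435 medians of the log2 fold change were -0.0204 over all members and -0.0275, -0.00510, -0.0526, 0.0169 and -0.0536 for complexes I to V, and with the upper quartile they were 0.0329, -0.0146, 0.0549 and -0.0156 for complexes II to V. For single genes in that line, total counts gave -0.0536 for ATP5F1B, -0.0108 for COX4I1, -0.000859 for SDHA, -0.0179 for SDHB and -0.00934 for SDHD, and the upper quartile gave -0.0156 for ATP5F1B.

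Ratios of summed FPKM, given for all members and then complexes I to V, were with total counts 0.894, 0.882, 0.972, 0.883, 0.901 and 0.892 in MDA-MB-231, then 0.974, 0.996, 0.995, 0.956, 0.969 and 0.959 in MDA-MB-435, and 1.28, 1.21, 1.15, 1.55, 1.49 and 1.12 between the controls. In TPM they were 0.954 for all members and 0.953 for complex V in MDA-MB-231, then 1.02, 1.04, 1.04, 0.999, 1.01 and 1.00 in MDA-MB-435, and 1.27, 1.20, 1.14, 1.54, 1.48 and 1.12 between the controls. The median difference between the lines stayed above 0 under each of the 5 scalings, from 0.16 to 0.24.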
